A study of Mus musculus with 7 samples.

Results

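The genes described here are 33 genes of the mouse lysosome: 11 glycosidases, 5 sulfatases, 7 genes for lipid breakdown or lipid transfer, 1 peptidase, 6 membrane proteins, and 3 genes for the transcription factor Tfeb and subunits of the proton pump. They were chosen by function, though with earlier results of these data known, and the cathepsins were left out. All 33 were found among the 55450 genes of the deposited count table. All 33 were also among the 17959 genes with enough counts to test. Bulk RNA sequencing was performed on whole dorsal skin of 7 male C57BL/6 mice aged 24 months, with 1 library per mouse. The skin was clipped and treated with a hair removal lotion, and then received a daily topical dose under a dressing for 5 days. The dose was 5 μM ABT-263 in DMSO for mice 476, 477 and 478, and DMSO alone for mice 480, 481, 482 and 483. ABT-263 (navitoclax) blocks BCL-2 and BCL-xL, proteins that protect cells from apoptosis, and is used as a senolytic, an agent that removes senescent cells. The comparison asks how these genes differ between aged skin given the drug and aged skin given its vehicle.

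Lysosomes are acidic compartments in which polymers delivered by endocytosis and autophagy are cut down to sugars, amino acids and lipids. Exoglycosidases and sulfatases take sugars and sulfates one at a time from the ends of glycoproteins, glycolipids and glycosaminoglycans, so the loss of a single enzyme causes a storage disease. Many lysosomal genes carry near their start an E-box that the factor TFEB and its relatives bind when they enter the nucleus, known as the CLEAR element. In senescence research the group is known for Glb1: the enzyme it encodes, β-galactosidase, gives the blue senescence-associated stain at near-neutral pH.

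Promoters of 30 of the 33 genes were in the RefSeq table used (GRCm38.p6, from 250 bases before to 50 after the start); those of Galns, Asah1 and Npc1 were not. The letters searched were the E-box CACGTG, the CLEAR core TCACGTGA and the full CLEAR palindrome, which adds a G before and a C after that core. Each reads the same on both strands, and the shorter ones lie inside the longer. Stretches of 3 promoters are shown, 1 from a gene that rose and 2 from genes that did not pass the test, since genes without a call hold such letters as well. All 3 lie before the start, and capitals mark TCACGTGA in Gla and CACGTG in Lamp1 and Glb1.
Gla, chrX:134601168-134601255, minus strand: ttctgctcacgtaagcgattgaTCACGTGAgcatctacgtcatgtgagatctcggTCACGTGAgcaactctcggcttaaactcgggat
Lamp1, chr8:13159075-13159160, plus strand: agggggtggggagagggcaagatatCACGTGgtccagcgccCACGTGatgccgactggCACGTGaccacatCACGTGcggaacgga
Glb1, chr9:114401005-114401060, plus strand: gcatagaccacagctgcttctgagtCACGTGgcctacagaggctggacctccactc

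The full palindrome was found in 1 of the 30 genes, Cln3, against 0.37% of 27025 genes with a promoter in the table. The core was found in 4 of the 30 (Gla, Cln3, Mcoln1 and Atp6v0d1) against 1.12% of all genes. CACGTG was found in 10 of the 30 against 8.09% of all genes. Among those 30 genes it stood in the promoters of 4 of the 12 that were higher after ABT-263, 1 of the 2 that were lower and 5 of the 16 that were not called. A match is a description of letters in this window and not a mapped binding site.

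After ABT-263, 13 of the 33 lysosomal genes were higher and 2 were lower (edgeR, adjusted p under 0.05 over all genes tested). That is 39.4% and 6.06% of the group, where 12.4% of all genes tested were called higher and 11.7% lower. The group was more abundant, with a median level of 41.3 CPM against 14.7 CPM over 17942 of the genes tested. What this difference does to the shares was not tested. The genes that rose were Asah1, Man2b1, Naglu, Gla, Arsa, Lipa, Gusb, Ppt1, Cln3, Arsb, Tpp1, Manba and Lamp2, with folds from 1.43 to 3.57. The first 5 of these rose by more than 2-fold. The genes that fell were Mcoln1 and Tfeb. The median log2 fold change was 0.38 over the 33 genes and 0.00 over all genes tested, and 27 of the 33 values were above 0. The ABT-263 values lay wholly above the DMSO values for 15 genes, against 18.7% of all genes tested, and wholly below them for 2, against 18.4%.

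Because RNA was taken from whole skin, a change in the number of cells of a type and a change in RNA per cell cannot be told apart in any of these values. The number of genes called depended on single mice, and the share of all genes called moved with it. Without ABT-263 mouse 478, 4 of the 33 genes were higher and none lower, with 5.22% and 4.17% of all genes called in that fit. Without DMSO mouse 482, 4 were higher and none lower (4.8% and 5.5% of all genes), and without DMSO mouse 483, 5 and none (5.58% and 6.07%). Without ABT-263 mouse 476, 5 were higher and 1 lower (6.01% and 5.99%), and without DMSO mouse 481, 6 and none (7.95% and 8.11%). Without DMSO mouse 480, 8 were higher and 2 lower (11.6% and 11.9%), and without ABT-263 mouse 477, 13 and none (12.3% and 9.33%). At an unadjusted edgeR p under 0.05, the 5 fits with none lower had 2 of the 33 genes lower without mouse 478, 482, 483 or 481 and 1 without mouse 477, where 15%, 16.3%, 16.7%, 17.3% and 17.7% of all genes were lower. At that p 15, 15, 15, 13 and 16 were higher, where 16.9%, 17.1%, 18%, 18.8% and 21.1% of all genes were. Asah1, Man2b1 and Naglu kept their calls in all 7 of these fits. With protein-coding genes alone 8 were higher and 2 lower (11.3% and 10.8% of all genes tested), and with trends on exon length and GC content removed 7 were higher and 1 lower (10.9% and 13.9%). Cln3, Lamp2, Lipa, Manba and Ppt1 lost their calls in both, and Gla and Tfeb in the second.

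**Figure D1:**
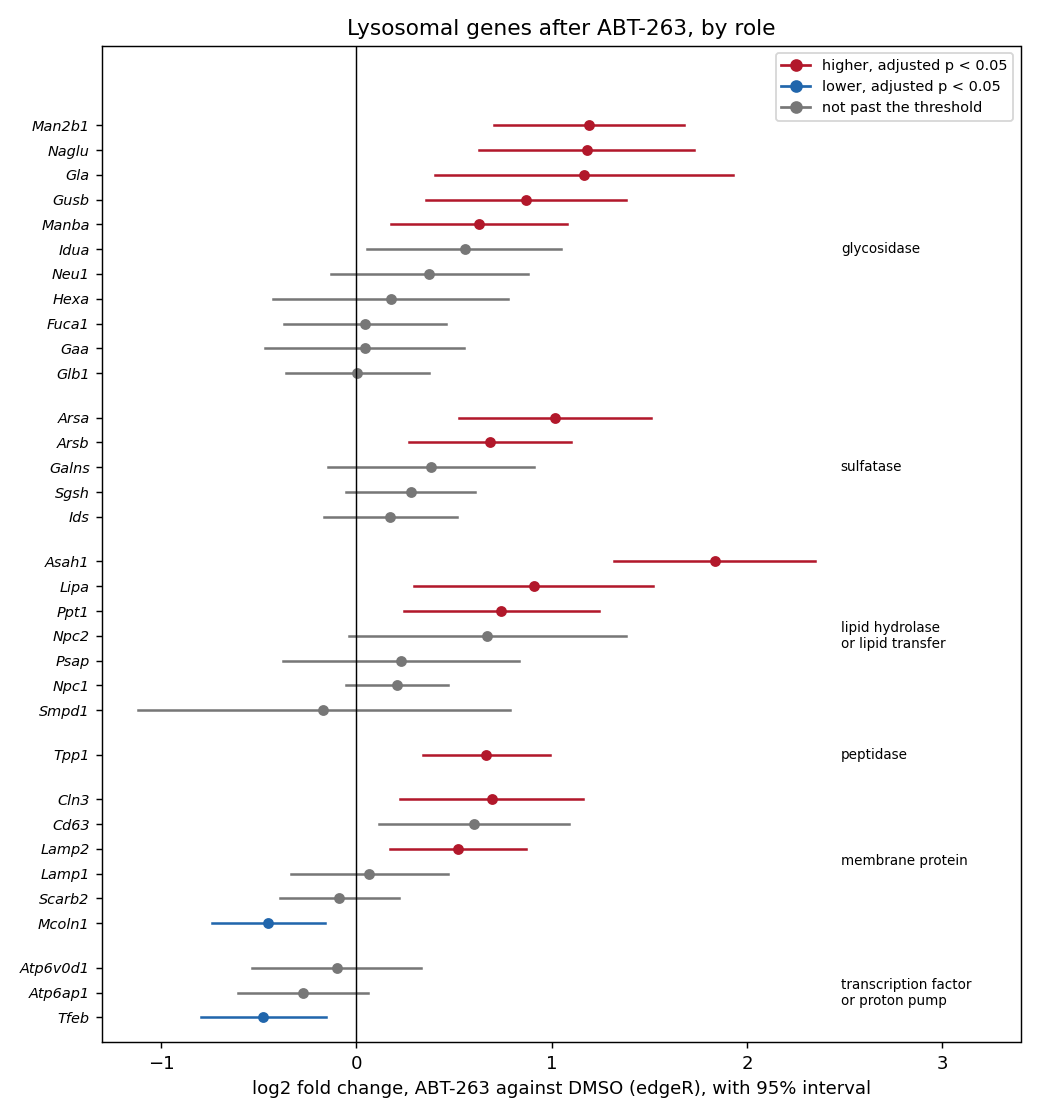
Log2 fold change of ABT-263 against DMSO for each of the 33 genes (x axis; 0 is no difference), with the 95% interval of the edgeR fit as a bar; genes are grouped by role and ordered by fold change on the y axis. Asah1 at 1.84 lies farthest to the right, Glb1 lies at 0.00, and Tfeb and Mcoln1 are the genes called lower.

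Glb1 (chr9:114401076-114474898, plus strand, in GRCm38 as all positions here), the β-galactosidase gene, did not pass the test. Its level was 27.3, 22.1, 28.4 and 28.8 CPM (read counts brought to a common library size, with TMM scaling for composition) in DMSO mice 480 to 483 and 32.0, 23.7 and 24.5 CPM in ABT-263 mice 476 to 478. Mouse 476 lay above all controls and the other treated mice inside the control range, so the groups overlapped. The log2 fold change was 0.00 (95% interval -0.36 to 0.37), and the adjusted p by edgeR was 0.985. The ends of that interval correspond to less than a 2-fold rise or fall. The senescence-associated stain reads the activity of the enzyme, which RNA does not measure. 5.48% of the exon bases of Glb1 are shared with another gene on its strand, and none of those of the other 32 genes are.

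Other glycosidases rose. Man2b1 (chr8:85083270-85098282, plus strand), the α-mannosidase that trims N-glycans of glycoproteins, stood at 75.3, 42.1, 49.8 and 46.5 CPM in the DMSO mice and at 142, 111 and 114 CPM in the ABT-263 mice. Every treated mouse was above every control, the lowest of them by a wide margin. On the log2 scale the fold change was 1.19 (SE 0.21, edgeR adjusted p = 0.0103), a fold of 2.28. Naglu (chr11:101070012-101077672, plus strand), which takes N-acetylglucosamine from heparan sulfate, stood at 17.2, 9.44, 9.60 and 10.9 CPM against 31.6, 22.5 and 26.2 CPM. DMSO mouse 480 was the highest control for both genes, and neither pair of groups overlapped. The log2 fold change of Naglu was 1.18 (SE 0.24, edgeR adjusted p = 0.0144). In an exact permutation test over the 35 splits of the mice, which cannot go below 0.0286, p was 0.0571 for either gene (two-sided).

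Gla (chrX:134588149-134601125, minus strand), the α-galactosidase lost in Fabry disease, stood at 8.43, 5.86, 7.55 and 11.1 CPM in the DMSO mice and at 28.6, 15.2 and 11.8 CPM in the ABT-263 mice. The groups did not overlap, but mouse 478 lay just above DMSO mouse 483 while mouse 476 was far above the rest. Its log2 fold change was 1.17 (SE 0.33, edgeR adjusted p = 0.0381), and the call held in 2 of the 7 fits with 1 mouse left out, where the value ran from 0.72 to 1.41. Gusb, the β-glucuronidase, was between 26.3 and 42.7 CPM in DMSO mice and between 54.7 and 86.9 CPM in ABT-263 mice. It rose by 0.87 on the log2 scale (SE 0.22, edgeR adjusted p = 0.0285) and was called in 2 of the 7 fits. Manba, the β-mannosidase that follows Man2b1 in the breakdown of N-glycans, rose by 0.63 (SE 0.20, edgeR adjusted p = 0.0495), from 11.4 to 18.7 CPM in DMSO mice against 21.9 to 28.8 CPM in ABT-263 mice. It was called in 1 of the 7 fits. Mouse 476 was the highest treated mouse for Gla and Gusb, and mouse 477 for Manba.

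The remaining 5 glycosidases beside Glb1 did not pass the test. Idua, the α-iduronidase of heparan and dermatan sulfate breakdown, had a log2 fold change of 0.56 (edgeR adjusted p = 0.0955), and Neu1, the sialidase, 0.37 (edgeR adjusted p = 0.241). Hexa, the α subunit of hexosaminidase A, had 0.18 (95% interval -0.43 to 0.78). Fuca1, the α-fucosidase, and Gaa, the acid α-glucosidase that digests glycogen, both had 0.04. The spread between mice was wide for Hexa, at 130 to 267 CPM in DMSO mice and 188 to 297 CPM in ABT-263 mice, and DMSO mouse 481 was its lowest library.

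Of the sulfatases, Arsa and Arsb rose. Arsa (chr15:89472476-89477425, minus strand), arylsulfatase A, which desulfates the myelin and kidney lipid sulfatide, stood at 15.8, 14.4, 12.7 and 19.1 CPM in the DMSO mice and at 38.6, 22.4 and 33.2 CPM in the ABT-263 mice. The groups did not overlap, and mouse 477 was the treated mouse nearest to the controls. The log2 fold change was 1.02 (SE 0.22, edgeR adjusted p = 0.0161). The call was lost without DMSO mouse 482 (edgeR adjusted p = 0.0502) and without ABT-263 mouse 478 (edgeR adjusted p = 0.0559). Arsb, the sulfatase for dermatan sulfate, was at 6.98 to 8.47 CPM in DMSO mice and at 10.9 to 15.6 CPM in ABT-263 mice. It rose by 0.68 (SE 0.18, edgeR adjusted p = 0.0309), called in 1 of the 7 fits.

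The other sulfatases, Galns of keratan sulfate breakdown, Ids of heparan and dermatan sulfate breakdown and Sgsh of heparan sulfate breakdown, had log2 fold changes of 0.38, 0.17 and 0.28 and did not pass (edgeR adjusted p = 0.25, 0.411 and 0.188). Sgsh was nevertheless higher in every treated mouse, at 19.99 to 22.6 CPM against 14.2 to 18.9 CPM. Summed over the 5 sulfatases, the level was 70.0 to 86.4 CPM in DMSO mice and 98.8 to 120.0 CPM in ABT-263 mice. The 11 glycosidases summed to 471 to 706 CPM and 695 to 950 CPM, which overlapped.

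Asah1 (chr8:41340197-41374773, minus strand) changed most. It encodes acid ceramidase, which splits ceramide into sphingosine and a fatty acid. Its level was 12.7, 14.5, 16.2 and 14.3 CPM in the DMSO mice and 67.4, 33.6 and 54.0 CPM in the ABT-263 mice. The controls were close together and the treated mice far above them and apart from each other, mouse 477 being the lowest. On the log2 scale the fold change was 1.84 (SE 0.23, edgeR adjusted p = 0.00614), a fold of 3.57, and it lay between 1.61 and 2.10 with any 1 mouse left out. The exact permutation p was 0.0286 (two-sided), the smallest these 7 mice can give.

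Smpd1, the acid sphingomyelinase that makes ceramide in the same compartment, did not pass the test. It stood at 262, 90.6, 135 and 99.1 CPM in the DMSO mice and at 92.5, 186 and 112 CPM in the ABT-263 mice. DMSO mouse 480 was the highest of all, the groups overlapped over most of their range, and its coefficient of variation of 54.0% in DMSO mice was the largest of the 33 genes. The log2 fold change was -0.17 with a 95% interval of -1.12 to 0.79.

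Lipa, the acid lipase for cholesteryl esters and triglycerides, and Ppt1, which removes palmitate from proteins, also rose. Lipa was at 11.7 to 26.1 CPM in DMSO mice and 32.4 to 45.8 CPM in ABT-263 mice, with a log2 fold change of 0.91 (SE 0.27, edgeR adjusted p = 0.0416). Ppt1 was at 25.9 to 33.2 CPM against 36.4 to 70.2 CPM, with 0.74 (SE 0.22, edgeR adjusted p = 0.0410). Neither pair of groups overlapped, and the calls held in 2 and 1 of the 7 fits with 1 mouse left out.

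Psap, the precursor of the saposins that present sphingolipids to their hydrolases, was the most abundant of the 33 genes and took 34.4% to 39.4% of their counts. It stood at 2112, 1304, 1997 and 2103 CPM in the DMSO mice and at 2863, 1796 and 1940 CPM in the ABT-263 mice. DMSO mouse 481 lay far below its group and mouse 476 above all others, while the other treated mice lay within the control range. On the log2 scale the fold change was 0.23 (95% interval -0.38 to 0.83, edgeR adjusted p = 0.553). Npc2 and Npc1 hand cholesterol from one to the other on its way out of the lysosome. Npc2 had a log2 fold change of 0.67 (edgeR adjusted p = 0.143), with mouse 476 at 801 CPM and the other treated mice at 387 and 415 CPM, inside the range of DMSO mice up to 435 CPM. Npc1 had 0.21 (edgeR adjusted p = 0.211).

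Tpp1 (chr7:105744811-105752235, minus strand), the tripeptidyl peptidase lost in a childhood neuronal ceroid lipofuscinosis, stood at 36.8, 37.3, 46.0 and 43.1 CPM in the DMSO mice and at 72.2, 54.9 and 67.0 CPM in the ABT-263 mice. The groups did not overlap and both were tight. The log2 fold change was 0.67 (SE 0.14, edgeR adjusted p = 0.0164). The call was lost without ABT-263 mouse 478 (edgeR adjusted p = 0.0561) and held in the other 6 fits.

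The membrane proteins went both ways. Lamp2 (chrX:38401357-38456454, minus strand), a glycoprotein of the lysosomal membrane with an isoform that receives substrates of chaperone-mediated autophagy, stood at 172, 137, 172 and 157 CPM in the DMSO mice and at 261, 196 and 230 CPM in the ABT-263 mice. Every treated mouse was above every control. Its log2 fold change was 0.52 (SE 0.15, edgeR adjusted p = 0.0410), called in 2 of the 7 fits. Lamp1, the related glycoprotein and the most abundant membrane protein of the group, had 0.07 (95% interval -0.34 to 0.47) and groups of 634 to 867 CPM and 745 to 884 CPM, which overlapped. Cln3, a protein lost in juvenile neuronal ceroid lipofuscinosis, was at 15.3 to 16.9 CPM in DMSO mice, the tightest group of the 33 genes with a coefficient of variation of 4.55%. It was at 20.8 to 35.6 CPM in ABT-263 mice, a log2 fold change of 0.69 (SE 0.20, edgeR adjusted p = 0.0416), called in 1 of the 7 fits. Scarb2, the receptor that brings β-glucocerebrosidase to the lysosome, had -0.09 (edgeR adjusted p = 0.659).

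Cd63, a tetraspanin of late endosomes and exosomes, was at 152 to 216 CPM in DMSO mice and 226 to 381 CPM in ABT-263 mice. The groups did not overlap, yet it missed the threshold with a log2 fold change of 0.60 (SE 0.21, edgeR adjusted p = 0.0719). A transcribed processed pseudogene, Cd63-ps, is 98.0% identical over 858 bases and held 38.1% of the counts of the pair, so the division of reads between them is uncertain. Summed, the pair stood at 245 to 359 CPM against 365 to 602 CPM, with a log2 fold change of 0.53 (SE 0.22, edgeR adjusted p = 0.113).

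Mcoln1 and Tfeb fell. Mcoln1 (chr8:3500457-3515232, plus strand), the calcium channel of the lysosomal membrane through which calcium release activates TFEB, stood at 40.0, 48.4, 47.3 and 51.0 CPM in the DMSO mice and at 32.6 to 36.9 CPM in the ABT-263 mice, mouse 478 being the lowest and 477 the highest. Every treated mouse was below every control, with DMSO mouse 480 nearest to them. Its log2 fold change was -0.45 (SE 0.13, edgeR adjusted p = 0.0358). Tfeb (chr17:47737030-47792419, plus strand), the factor itself, stood at 54.2, 62.6, 59.8 and 67.6 CPM against 50.6, 37.9 and 43.2 CPM. These groups did not overlap either, mouse 476 lying just below the lowest control. The log2 fold change of Tfeb was -0.48 (SE 0.14, edgeR adjusted p = 0.0416). Mcoln1 was called in 1 and Tfeb in 2 of the 7 fits with 1 mouse left out, and both values stayed below 0 in all of them. Both calls were lost in a test without the filter on low counts (edgeR adjusted p = 0.0922 for Mcoln1 and 0.0838 for Tfeb), and that of Tfeb when length and GC trends were removed (edgeR adjusted p = 0.173). TFEB is controlled largely by its movement between cytoplasm and nucleus, which RNA does not measure.

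The V-ATPase pumps the protons that keep the lysosome acidic. Atp6v0d1, a subunit of its membrane sector, had a log2 fold change of -0.10 (edgeR adjusted p = 0.725), and Atp6ap1, an accessory subunit, -0.27 (edgeR adjusted p = 0.199). Atp6ap1 was at 198 to 256 CPM in DMSO mice and 167 to 207 CPM in ABT-263 mice, which overlapped.

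**Figure D2:**
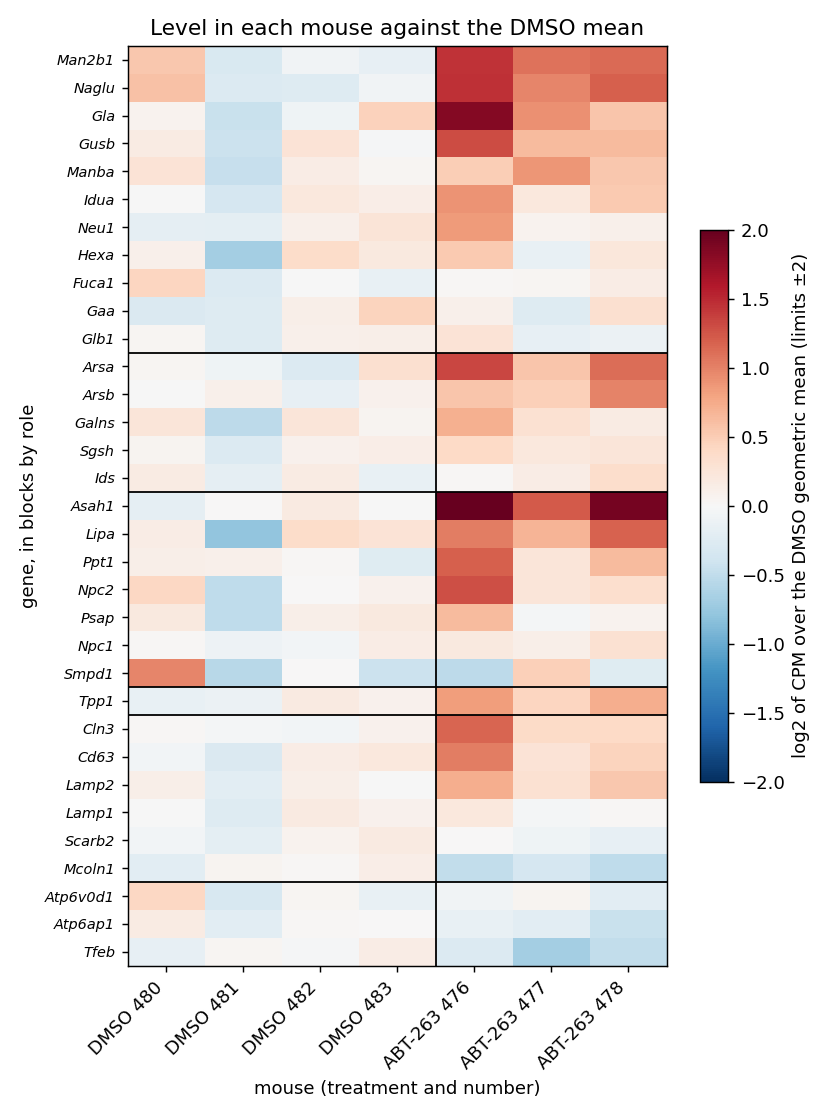
Level of each of the 33 genes (rows, by role) in each of the 7 mice (columns), as log2 of CPM over the geometric mean of the 4 DMSO mice (red above, blue below, colors limited to ±2, which Asah1 exceeds in mouse 476). Mouse 476 has the most genes above the controls, and DMSO mouse 481 is below the other controls for much of the group.

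The treated mice differed from each other. Mouse 476 exceeded every DMSO mouse in 24 of the 33 genes, mouse 478 in 18 and mouse 477 in 16, while 2, 3 and 3 genes were below every DMSO mouse. These counts have no share of all genes tested beside them. They compare the mice and do not set the 33 genes apart from other genes. The median difference from the DMSO mean, as log2(CPM + 1), was 0.63 in mouse 476, 0.34 in mouse 478 and 0.24 in mouse 477. Among the controls it was -0.26 in mouse 481 and between 0.06 and 0.09 in the other mice. The 33 genes took 0.505%, 0.402%, 0.509% and 0.513% of all counts in the DMSO mice and 0.743%, 0.519% and 0.582% in the ABT-263 mice. Every treated mouse was above every control in this share, by little in mouse 477. The sum in CPM, which allows for the composition of each library, was 5539, 3791, 5314 and 5334 against 7260, 5111 and 5448, and there the groups overlapped.

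Levels can be compared between genes per length, as CPM per kilobase of exon. In DMSO mice Psap stood highest at 685 ± 141 (SD, n = 4), then Lamp1 at 287 ± 37.0 and Hexa at 108 ± 29.9. Glb1, the gene behind the senescence stain, stood at 8.86 ± 1.03, and Arsb was lowest at 1.30 ± 0.11, a span of 525-fold from Psap to Arsb. The mean of the next gene, Atp6v0d1 at 86.7 ± 19.7, was less than 1 SD of Hexa below that of Hexa. The 11 genes with the highest levels, from Psap down to Scarb2, held no call, and all 13 genes called higher and both called lower were among the 22 below them. Across the 33 genes the rank correlation of log2 fold change with level (CPM per kilobase over all 7 mice) was -0.36, and across all genes tested it was -0.04. These correlations describe genes that share the same libraries. With the GC content of each gene's longest transcript the rank correlation was -0.18 across the 33 genes and -0.06 across all genes tested. With exon length it was 0.12 and 0.07.

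**Figure D3:**
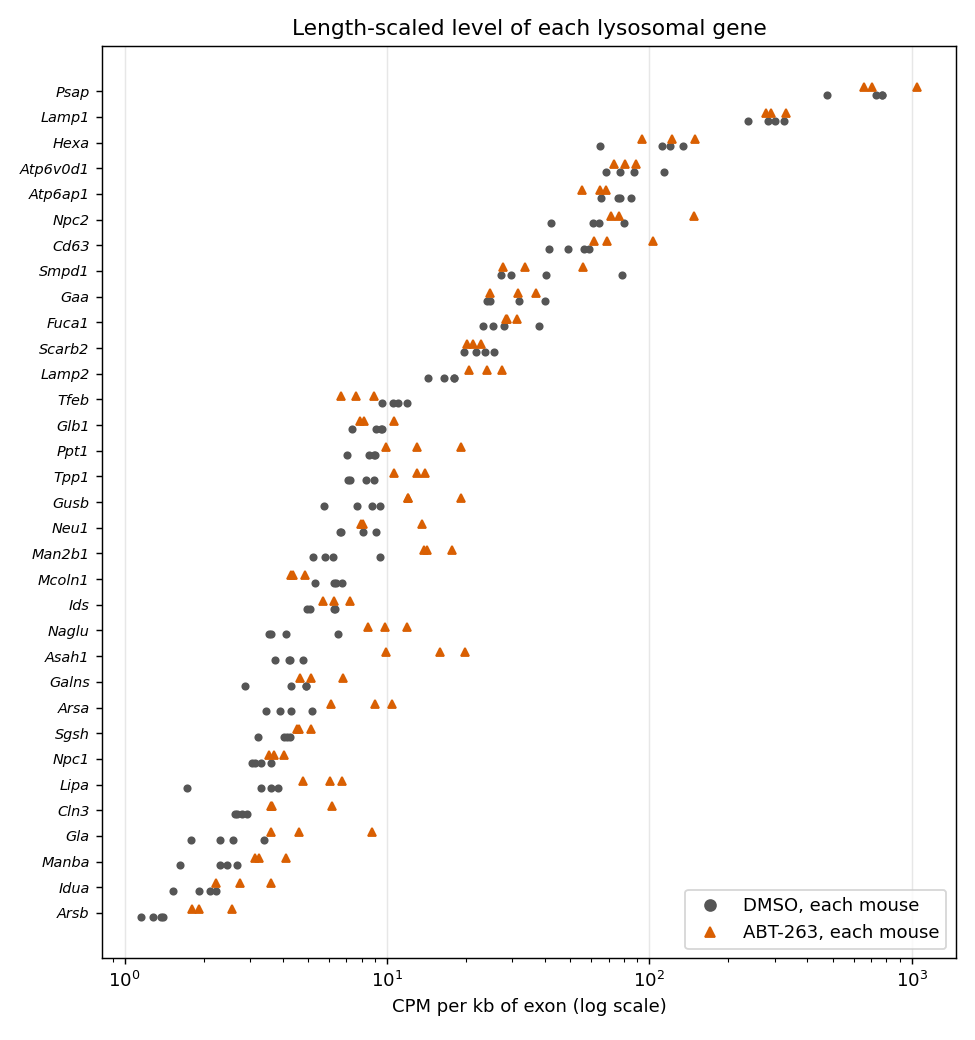
Level per length of each of the 33 genes (CPM per kilobase of exon, log axis), with 1 point per mouse and the 2 treatments in separate colors; genes are ordered by their level in DMSO mice. Psap stands at 685 and Arsb at 1.30 in DMSO mice, and every gene called lies at or below Lamp2 in the order, though the groups of Cd63, above it, do not overlap either.

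Lysosomal genes were compared within each library, as log2 ratios of CPM, in 4 exact permutation tests with adjustment over the 4, of which 3 are given. Neu1 works in a complex with Glb1 and the protective protein Ctsa. The ratio of Neu1 to Glb1 was -0.13, 0.15, 0.09 and 0.24 in the DMSO mice and 0.67, 0.32 and 0.31 in the ABT-263 mice, which did not overlap. The difference of 0.34 had an exact permutation p of 0.0571 (two-sided, 0.229 adjusted) and did not pass. The ratio of Ctsa to Glb1 differed by 0.31 (exact permutation p = 0.429) and that of Lamp1 to Glb1 by 0.07 (exact permutation p = 0.286). None of these passed after adjustment.

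Other genes of the lysosome were read from lists by function. Their edgeR counts stand beside 12.4% of all genes tested called higher and 11.7% called lower. Of 14 cathepsins and legumain tested, 6 (42.9%) were higher and none lower by edgeR, with a median log2 fold change of 0.91. By the DESeq2 Wald test 1 was lower, and 1 was lower at an unadjusted p under 0.05. The DESeq2 test called 13.9% of all its genes higher and 12.6% lower. For the unadjusted p in the fit of all 7 mice, here and below, the share of all genes is not given. Ctsc, the cathepsin that activates granule proteases, rose by 2.01 (SE 0.36, edgeR adjusted p = 0.0114), and Ctsh, an aminopeptidase, by 1.56 (SE 0.30, edgeR adjusted p = 0.0124). Of 21 other hydrolases and cofactors, 5 (23.8%) were higher and 1 (4.76%) lower. Hgsnat, which acetylates heparan sulfate for Naglu, rose by 1.07 (SE 0.20, edgeR adjusted p = 0.0114). Dnase2a, the acid DNase, fell by 0.73 (SE 0.23, edgeR adjusted p = 0.0479). That call held in 1 of the 7 fits with 1 mouse left out (largest edgeR adjusted p = 0.153) and was lost with DESeq2's size factors.

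Of 22 other lysosomal membrane proteins tested, 7 (31.8%) were higher and 1 (4.55%) lower, with a median of 0.18. Over all genes tested, 12.4% were higher and 11.7% lower. The channel gene Tpcn2 rose by 1.21 (SE 0.23, edgeR adjusted p = 0.0117). Slc38a9, the arginine sensor that signals to mTORC1, fell by 0.62 (SE 0.13, edgeR adjusted p = 0.0158). Of the 19 other V-ATPase subunits, 2 were higher and 3 lower, with a median of -0.21. Atp6v0c, which forms the proton-carrying ring, rose by 1.02 (SE 0.20, edgeR adjusted p = 0.0124) and Atp6ap2 by 0.56 (SE 0.14, edgeR adjusted p = 0.0275). Atp6v0e2 fell by 0.76 (SE 0.19, edgeR adjusted p = 0.0271) and Atp6v1f by 0.48 (SE 0.13, edgeR adjusted p = 0.0342). These shares of 10.5% higher and 15.8% lower lie near those of all genes tested.

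A list of 21 genes held relatives of Tfeb and the Rag, Ragulator and mTORC1 branch that holds it in the cytoplasm. Of these, 6 were higher and 3 lower, with a median of 0.11. These shares were 28.6% and 14.3%, against 12.4% and 11.7% of all genes tested, so the share lower lay near that of all genes. The GTPase genes Rraga and Rragc rose by 0.70 (SE 0.13, edgeR adjusted p = 0.0117) and 0.65 (SE 0.12, edgeR adjusted p = 0.0124). The Ragulator subunits Lamtor4 and Lamtor2 fell by 1.22 (SE 0.18, edgeR adjusted p = 0.00676) and 0.58 (SE 0.17, edgeR adjusted p = 0.0419). Of 22 genes for sorting to the lysosome, 5 (22.7%) were higher and none lower by edgeR, with a median of 0.23. None was lower at an unadjusted p under 0.05 or by the DESeq2 Wald test. The latter called 7 higher, and over all genes 13.9% higher and 12.6% lower. M6pr, a receptor for the mannose 6-phosphate tag of new hydrolases, rose by 1.13 (SE 0.16, edgeR adjusted p = 0.00641) and the early endosome gene Rab5a by 1.94 (SE 0.30, edgeR adjusted p = 0.00747).

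Of 22 core autophagy genes, 5 (22.7%) were higher and 1 (4.55%) lower, with a median of 0.18. Over all genes tested, 12.4% were higher and 11.7% lower. Atg9a, for the membrane protein of autophagosome formation, rose by 2.45 (SE 0.30, edgeR adjusted p = 0.00608), and Atg3, for the enzyme that joins LC3 to lipid, by 0.81 (SE 0.15, edgeR adjusted p = 0.0113). Map1lc3a, for a form of LC3, fell by 1.17 (SE 0.19, edgeR adjusted p = 0.00796), with 829 ± 86.0 CPM in DMSO mice (SD, n = 4) and 368 ± 63.5 CPM in ABT-263 mice (SD, n = 3). Left-out mice moved these list counts as well. Over the 7 fits the number called higher ran from 3 to 7 for the cathepsins, 1 to 8 for the other hydrolases, 2 to 7 for the other membrane proteins, 1 to 2 for the V-ATPase subunits, 3 to 5 for the Tfeb branch, 3 to 6 for sorting and 2 to 5 for autophagy. The V-ATPase subunits called lower went from 3 to none in 5 of the 7 fits and to 1 in the other pair. Over the same fits the share of all genes called ran from 4.8% to 12.3% higher and from 4.17% to 11.9% lower. The list counts did not all follow it. Sorting and autophagy kept 5 higher each without ABT-263 mouse 476, where 6.01% of all genes were higher. No V-ATPase subunit was lower without ABT-263 mouse 477, where 9.33% of all genes were lower. Of the genes named from these lists, Atp6v0e2, Atp6v1f and Dnase2a were called in 1 fit, Atp6ap2 and Lamtor2 in 2 and Slc38a9 in 6, and the others in all 7. Of the macrophage genes named next, Adgre1 was called in 1 fit, Cd68 and Mrc1 in 2, Csf1r and Lyz2 in 6 and Cd14 in all 7.

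**Figure D4:**
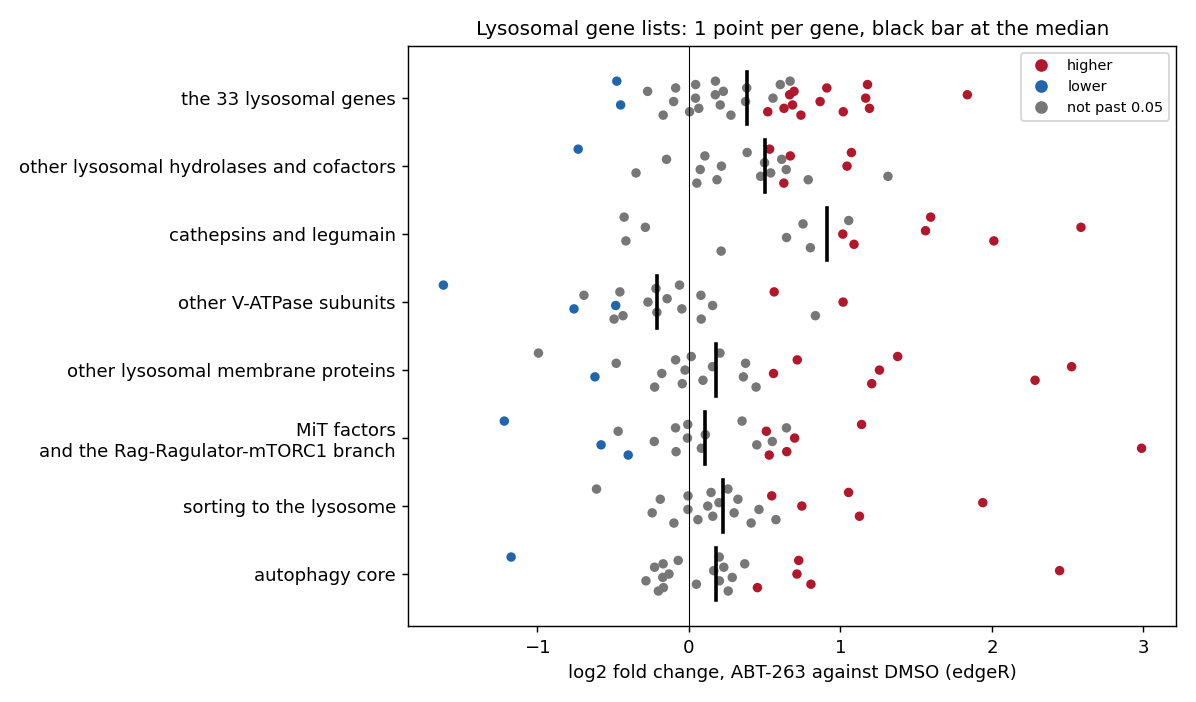
Log2 fold change (x axis) of every tested gene in the 33-gene group and in each further list of lysosomal, sorting and autophagy genes (y axis), 1 point per gene, with called genes in color and the median of each list as a bar. The cathepsins have the highest median at 0.91 and the other V-ATPase subunits the lowest at -0.21.

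Markers of some of the cell types that skin holds differed between the treatments. Keratinocyte and fibroblast markers, which define skin, were abundant in all libraries, and so were skeletal muscle markers, at 23570 to 59620 CPM summed. Of 14 macrophage markers, 9 (64.3%) were higher and none lower by edgeR, where 12.4% of all genes tested were higher and 11.7% lower. At an unadjusted edgeR p under 0.05 the macrophage counts were 12 and 0. The macrophage sum was 475 to 1348 CPM in DMSO mice and 1627 to 5043 CPM in ABT-263 mice. Macrophages are rich in lysosomes. Adgre1, which encodes the F4/80 antigen, stood at 10.3 CPM in DMSO and 43.5 CPM in ABT-263 mice on average (log2 fold change 2.07, edgeR adjusted p = 0.0291). Csf1r had 1.55, Mrc1 1.32, Lyz2 2.43 and Cd14 3.67 (edgeR adjusted p = 0.0176, 0.0322, 0.0210 and 0.0170). Cd68, itself a protein of the lysosomal membrane and held in that list too, had 1.26 (edgeR adjusted p = 0.0333).

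As for the 33 genes, mouse 476 had the highest macrophage sum of the treated mice, mouse 478 the next and mouse 477 the lowest, and DMSO mouse 481 had the lowest of all. The order was not particular to macrophages. Neutrophil and endothelial sums had the same order of treated mice and were also lowest in DMSO mouse 481, while the fibroblast sum was highest in mouse 478. The sums of neutrophil markers (99.9 to 1821 against 5098 to 8319 CPM), fibroblast markers (3998 to 5619 against 6300 to 8889 CPM) and endothelial markers (134 to 299 against 444 to 584 CPM) were also higher in every treated mouse. Neutrophil markers were higher for 3 of the 5 tested, while Ly6g, Mpo and Elane had too few counts to test. Fibroblast markers were higher for 3 of 8 and endothelial markers for 6 of 6, with none lower in either list. Over all genes tested, 12.4% were higher and 11.7% lower by edgeR. Melanocyte markers, with 1 of 5 lower, summed to 83.1 to 314 against 8.04 to 51.5 CPM. The part of these cell types in the values of the lysosomal genes was not tested.

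The sums of the other marker lists overlapped between the groups. Basal keratinocyte markers had 1 of 7 higher and 1 of 7 lower, mast cell markers 1 of 6 higher, and skeletal muscle markers 2 of 8 lower. These counts stand beside 12.4% of all genes tested called higher and 11.7% called lower. By edgeR no marker was called among those of T cells, differentiated keratinocytes, sebaceous gland or adipocytes, where 0, 1, 3 and 2 had an unadjusted p under 0.05 and the DESeq2 Wald test called 1, 1, 0 and 1. Each of these lists held 7 genes, and that DESeq2 test called 13.9% of all genes higher and 12.6% lower.

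**Figure D5:**
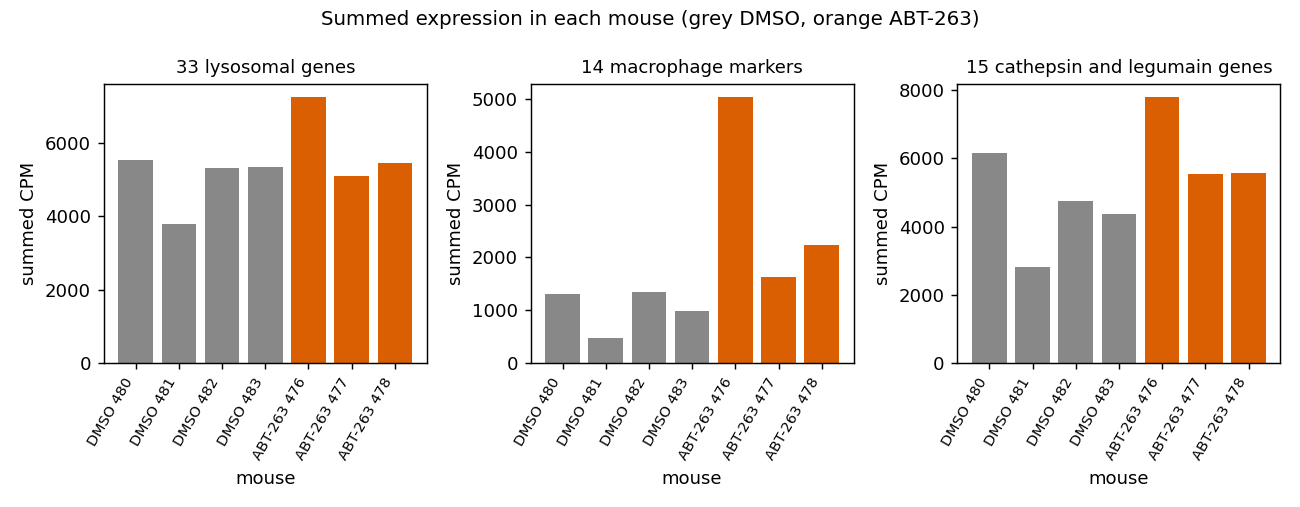
Summed CPM (y axis, from 0) of the 33 lysosomal genes, of the 14 macrophage markers and of the 15 cathepsin and legumain genes, 1 bar per mouse, DMSO in grey and ABT-263 in orange. Mouse 476 is highest and DMSO mouse 481 lowest in all 3 panels; the macrophage sums do not overlap between treatments (475 to 1348 against 1627 to 5043), while the lysosomal and cathepsin sums do.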

How the data were processed

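RNA of dorsal skin from 4 DMSO-treated and 3 ABT-263-treated mice was sequenced after polyA selection. Per the labels and methods, the authors aligned reads to mm10 with STAR 2.7.9a and used featureCounts (Subread 1.6.2) to count proper read pairs with a unique alignment, by strand and Ensembl gene, without mitochondrial genes. The deposited counts are raw counts per gene. The authors also deposited variance-stabilized values on a log2 scale (DESeq2 1.23.10), used here only for an alternative. Total counts ran from 20344364 to 43562330 per library, every ABT-263 library being larger than every DMSO library. No batch is named by the labels.

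Counts were tested in R 4.3.3 with edgeR 4.0.16: libraries were scaled by TMM, low genes removed by filterByExpr, and a robust quasi-likelihood fit tested two-sided. P-values were adjusted by Benjamini-Hochberg over 17959 genes, with a threshold of 0.05. Each fold change is the fitted value, and its SE follows from the F statistic. GENCODE M21 (GRCm38) supplied gene positions, exon lengths and GC content for 55190 of 55450 identifiers, and its pseudogenes were searched with blastn for near-identical copies of the 33 genes. The script was tested on simulated data. The 33 genes and all lists were chosen with earlier results of these data known, so the lists are described by counts and medians and received no set test. All 33 genes are named; from each further list, the 2 genes with the smallest p in each direction among those called; of the markers, sums and 6 macrophage genes. A few genes that this rule names, and 1 of the ratios, are not reported here. Alternatives were the DESeq2 1.42.0 Wald test, its size factors, every gene with a count, at least 10 counts in every mouse, protein-coding genes only, length and GC trends removed (mgcv 1.9.3), counts thinned to the smallest library, limma 3.58.1 on the log2 values, and leaving out each mouse; summing Cd63 with its pseudogene and comparing the 4 ratios were added after seeing the data.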

Additional observations from a re-analysis of the deposited data

Results flagged for a closer look

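In the 4 DMSO mice, 46 values were searched for a mouse set apart from its group. They were the CPM of each of the 33 genes, the sum of those genes and the sum of each cell type marker list. Sums by role and of the other lysosomal lists were not searched. By Dixon's ratio of gap to range 4 values passed the 95% critical value, where chance gives about 2.3. Mouse 481 was low for Psap (ratio 0.857, 1304 CPM against 1997 to 2112) and for the sum of the 33 genes (ratio 0.871, 3791 CPM against 5314 to 5539), of which Psap is the largest part. Mouse 480 was high for the summed markers of basal keratinocytes (ratio 0.909) and of mast cells (ratio 0.878). The cause was not tested.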

How the results depend on the processing

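No paired analysis was possible because the mouse numbers are not shared between the treatments. With 3 mice against 4, leaving out 1 mouse gave 4 to 13 genes higher, 0 to 2 lower and a median log2 fold change of 0.26 to 0.52, and over all genes tested 850 to 2286 higher and 771 to 2104 lower. Protein-coding genes alone gave 8 higher, and removal of length and GC trends 7 higher and 1 lower (edgeR). In these fits 11.3% and 10.9% of all genes were higher, and 10.8% and 13.9% lower. Testing every gene with a count gave 0 lower (edgeR), where 1515 of all 30645 such genes were lower. The cause was not tested. The other alternatives gave 11 to 13 genes higher and 2 lower, and over all genes tested 2068 to 2986 higher and 1970 to 2707 lower.

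No called gene changed direction. Of the genes not called, Glb1 went to -0.0303 with protein-coding genes, -0.129 without the trends and -0.0248 after thinning. Without the trends Fuca1 went to -0.0522, Ids to -0.00408 and Lamp1 to -0.0506. With 1 mouse left out, the log2 fold change ran from -0.137 to 0.114 for Glb1, -0.00808 to 0.36 for Hexa, -0.0934 to 0.211 for Gaa and -0.0475 to 0.21 for Fuca1. It ran from -0.499 to 0.267 for Smpd1, -0.00217 to 0.385 for Psap, -0.0196 to 0.145 for Lamp1 and -0.203 to 0.056 for Atp6v0d1.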
